A study of Mus musculus with 22 samples.

Results

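The mucin family was followed as 9 genes, Muc1, Muc2, Muc3, Muc4, Muc5ac, Muc5b, Muc6, Muc13 and Muc20, taken by their symbols from the 46078 genes of a count table of mouse samples labelled as distal colon. RNA had been sequenced from 22 mice in 3 groups. The first group held 8 C57BL/6 wild-type controls (4 males and 4 females, 14 weeks old). The second held 7 Winnie mice labelled as inflamed (3 males and 4 females, 14 weeks old), and the third held 7 Winnie-Prolapse mice labelled as severely inflamed (4 males and 3 females, 18 weeks old). Winnie mice carry a missense mutation in Muc2 itself and develop colitis spontaneously, so no group received an agent. The mutation is germline, it is not limited to 1 cell type, and the Winnie and Winnie-Prolapse groups share it. Because the counts are per gene, they do not show which allele a Muc2 transcript came from. Age goes with the Winnie-Prolapse group, so age and prolapse cannot be told apart.

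Mucins are large glycoproteins whose repeat-rich stretches are densely covered with O-linked sugars. Gel-forming mucins (Muc2, Muc5ac, Muc5b and Muc6) are secreted and polymerise into mucus, and Muc2, made by goblet cells, is the main component of the mucus layers of the healthy colon. Muc5ac and Muc6 are known from the stomach, and Muc5b from the airways and salivary glands. Transmembrane mucins (Muc1, Muc3, Muc4, Muc13 and Muc20) stay anchored in the apical membrane of epithelial cells, where Muc3 and Muc13 belong to the enterocyte glycocalyx. In Winnie mice the mutated Muc2 protein misfolds in the endoplasmic reticulum of goblet cells.

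Members lie in a few stretches of the genome (GENCODE M21 on GRCm38). The 4 gel-forming genes are neighbours on chromosome 7, with Muc6 at chr7:141633456-141655319 on the minus strand, and Muc2 at chr7:141690340-141754693, Muc5ac at chr7:141788972-141819231 and Muc5b at chr7:141839070-141873084 on the plus strand. The gaps between them measure 35020, 34278 and 19838 bp. On chromosome 16, Muc4 (chr16:32735886-32782391, plus) and Muc20 (chr16:32777419-32797435, minus) overlap by 4973 bp on opposite strands, and Muc13 (chr16:33794037-33819934, plus) follows. Muc1 is at chr3:89229057-89233381 (plus) and Muc3 at chr5:137134922-137149322 (minus). The strand setting of the counting was not given in the sources used here, so reads of the shared stretch of Muc4 and Muc20 are uncertain, as are those of Muc13 where it overlaps Gm15657 on the opposite strand. Muc3 has a paralog, Muc3a, and the counting could have split reads between them.

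The 250 bases before the transcription start are shown for 4 members, the mutated gel-forming gene and the 3 membrane mucins that were highest in Winnie-Prolapse mice relative to controls. They were read from RefSeq on GRCm38.p6, which gave entries for 7 of the 9 members and none here for Muc5ac and Muc5b. Each runs 5′ to 3′ on the gene's strand, and capitals mark matches on either strand to 6 motifs. The core promoter box was searched as TATAAA. Motifs of gut transcription factors were GATAA for the Gata4 and Gata6 family, TTTATG for the Cdx family, CACCC for the Klf family and GTTAAT for the Hnf1 family. The motif of the Stat family was TTCNNNGAA.
Muc2 (chr7:141690090-141690339, plus): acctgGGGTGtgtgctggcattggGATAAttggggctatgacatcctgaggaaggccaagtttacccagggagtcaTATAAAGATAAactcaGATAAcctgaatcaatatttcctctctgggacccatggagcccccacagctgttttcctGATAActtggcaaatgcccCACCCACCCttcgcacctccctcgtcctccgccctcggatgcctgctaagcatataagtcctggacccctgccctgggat
Muc1 (chr3:89228806-89229055, plus): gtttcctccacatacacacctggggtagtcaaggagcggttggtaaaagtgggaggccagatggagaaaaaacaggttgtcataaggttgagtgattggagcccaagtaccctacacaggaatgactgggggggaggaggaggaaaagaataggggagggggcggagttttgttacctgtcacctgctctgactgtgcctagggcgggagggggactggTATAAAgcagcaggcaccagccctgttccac
Muc4 (chr16:32735636-32735885, plus): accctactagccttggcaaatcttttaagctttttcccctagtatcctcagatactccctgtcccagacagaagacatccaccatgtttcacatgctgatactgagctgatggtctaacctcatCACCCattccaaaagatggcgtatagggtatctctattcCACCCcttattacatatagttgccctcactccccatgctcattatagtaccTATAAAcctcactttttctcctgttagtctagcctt
Muc20 (chr16:32797436-32797685, minus): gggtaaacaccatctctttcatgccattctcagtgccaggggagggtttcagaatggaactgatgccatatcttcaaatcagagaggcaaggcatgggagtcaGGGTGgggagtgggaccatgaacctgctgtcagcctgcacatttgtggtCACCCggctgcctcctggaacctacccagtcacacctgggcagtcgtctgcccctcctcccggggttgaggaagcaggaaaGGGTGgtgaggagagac
The Muc2 stretch held 4 GATAA matches, of which the 1 starting 168 bases before the start directly follows a TATAAA, and 3 CACCC matches, 2 of which overlap each other. GATAA was found in 22.6% of all 32851 promoter stretches of this length in the table, CACCC in 52.0% and TATAAA in 12.4%. Muc1 and Muc4 each had a TATAAA near the usual distance from the start, at 31 and 36 bases before it. Muc20 had 3 CACCC matches and no TATAAA. The first Muc13 stretch held single matches to TTTATG and TTCNNNGAA, which 10.8% and 7.02% of all stretches hold. GTTAAT, in 6.43% of all stretches, was matched only in the second Muc13 entry among the members. These matches describe letters in a window and were not tested for binding.

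Libraries held 24.8 to 36.3 M (mega) counts, so 3 counts correspond to 0.0825 to 0.121 CPM (a gene's counts scaled to the library total), and values at that level cannot be told from 0. Libraries of 3 mice stood apart before any test. C57BL/6 replicate 7 had 0.217 CPM of Hoxd13, a gene that marks the hind end of the gut, against 111 to 288 CPM in the other 21 libraries, and Hoxb13 was 16.4 CPM there against 177 to 612 CPM elsewhere. This library therefore goes against its distal colon label. Winnie-Prolapse replicate 6 carried 72843 CPM of Csn2, a milk protein gene that was at most 19.5 CPM in any other library. Winnie-Prolapse replicate 7 carried 18.0 CPM of Tff1, a gastric-type peptide at most 0.356 CPM elsewhere, and the highest sum over 12 squamous epithelial markers (3637 CPM). That sum ranged from 4.21 to 48.1 CPM in C57BL/6, 6.76 to 120 CPM in Winnie and 107 to 3637 CPM in Winnie-Prolapse mice. Outside Winnie-Prolapse replicates 2, 4, 5, 6 and 7 this sum was largely that of 1 gene, Sprr1a, wherever it was above 20 CPM, with 92.6% of it in C57BL/6 replicate 7, 96.2% in Winnie replicate 1 and 95.1 and 97.8% in Winnie-Prolapse replicates 1 and 3, and Winnie replicate 2 was the exception with 52.2%. Fold changes of the members and counts over gene lists are given with all libraries, and calls that changed without C57BL/6 replicate 7, without Winnie-Prolapse replicates 6 and 7 or without the 5 Winnie-Prolapse libraries high in squamous markers are given beside them, while levels of single pathway genes are given with all libraries. In whole tissue, fewer cells of a type and less RNA per cell cannot be told apart.

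Among the gel-forming mucins, Muc2 was the only member with a substantial level in every library. In C57BL/6 mice Muc2 measured 2505 CPM at the lowest, 2903 at the median and 7901 at the highest. The same values were 1029, 2045 and 3254 CPM in Winnie mice and 1292, 1798 and 3079 CPM in Winnie-Prolapse mice. All groups overlapped, although 5 of 7 Winnie and 6 of 7 Winnie-Prolapse libraries lay below every control, and the highest control was replicate 7. The fitted log2 fold change of Muc2 was -0.65 ± 0.29 (SE) for Winnie relative to C57BL/6 mice (edgeR adjusted p = 0.113), and for Winnie-Prolapse relative to C57BL/6 mice it was -0.84 ± 0.27 (adjusted p = 0.0155). Without C57BL/6 replicate 7 these values were -0.37 ± 0.23 (adjusted p = 0.231) and -0.55 ± 0.19 (adjusted p = 0.0209). Between Winnie-Prolapse and Winnie mice Muc2 differed by -0.19 ± 0.28 (adjusted p = 0.696; 95% interval -0.79 to 0.41). Calls required an adjusted p under 0.001 together with at least a 1.5-fold difference, and Muc2 was not called in any comparison.

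Muc5b was close to absent in 20 of 22 libraries and abundant in the other two. It reached at most 0.231 CPM in C57BL/6 mice (9 counts over 8 libraries) and 0.0675 CPM in Winnie mice (4 counts over 7 libraries). In Winnie-Prolapse mice the values were 0.0592, 0, 0.0303, 0.0992, 0.360, 54.8 and 520 CPM for replicates 1 to 7. The high values were those of the library with milk transcripts (1359 counts) and of the library with Tff1 (14141 counts). The groups overlapped, and Muc5b did not pass the edgeR count filter in any of the 3 comparisons over all mice. DESeq2, run without that filter, called it higher in Winnie-Prolapse mice than in both other groups. edgeR without the filter did not call it (adjusted p = 0.00167 relative to C57BL/6 and 0.0259 relative to Winnie mice), nor did edgeR between the Winnie groups in females alone (adjusted p = 0.0128). Of the 10 gastric markers, 6 were at 0 in replicate 7, where their sum was 18.4 CPM, nearly all Tff1, and 7 were at 0 in replicate 6, where their sum was 0.725 CPM. The part of milk-producing, gastric or squamous tissue in the Muc5b values was not tested.

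Muc5ac and Muc6 were at or near the limit of counting. Muc5ac had 14 counts in all 22 libraries together, none in C57BL/6 mice and 6 in Winnie-Prolapse replicate 6. Muc6 had 55 counts, of which 35 (1.27 CPM) fell in C57BL/6 replicate 7 and 7 in Winnie-Prolapse replicate 4. Differences between groups were not detectable for Muc5ac and Muc6 at this depth.

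**Figure D1:**
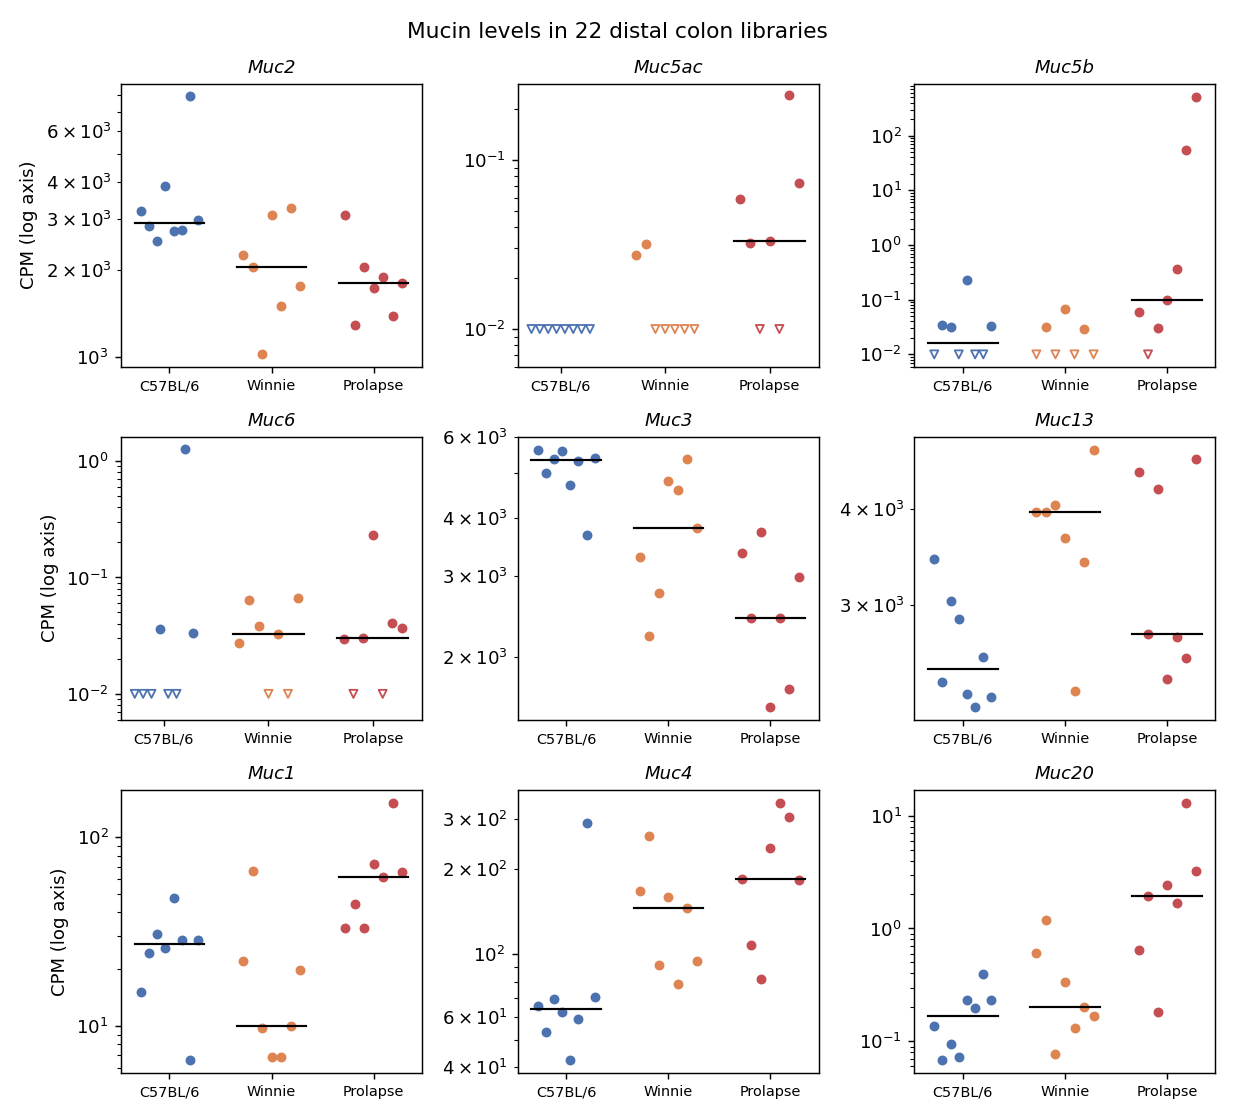
Level of each of the 9 mucins in CPM on a log axis that differs between panels, with 1 point per library in replicate order, bars at the group medians and open triangles at 0.01 for libraries at 0. Muc5b stands at 54.8 and 520 CPM in 2 Winnie-Prolapse libraries and at 0.360 CPM or less in the others, and Muc2, Muc4 and Muc6 are highest among controls in C57BL/6 replicate 7.

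Fitted differences of the transmembrane mucins had both signs. Muc3, the most abundant member by counts in controls, measured 3665, 5343 and 5632 CPM (lowest, median and highest) in C57BL/6 mice. It measured 2211, 3796 and 5372 CPM in Winnie mice and 1555, 2429 and 3722 CPM in Winnie-Prolapse mice. Of the Winnie-Prolapse libraries, 6 of 7 lay below all controls, and all 7 did so when C57BL/6 replicate 7 was left out, as did 12.6% of all genes tested. In Winnie-Prolapse against C57BL/6 the log2 fold change of Muc3 was -0.88 ± 0.20 (edgeR adjusted p = 0.00191), which is past the fold limit but not the limit on p. It was -0.92 ± 0.20 (adjusted p = 0.00154) without C57BL/6 replicate 7 and -0.83 ± 0.23 (adjusted p = 0.00945) without Winnie-Prolapse replicates 6 and 7. Its call depended on the method, since DESeq2 (adjusted p = 4.9e-05), limma-voom (0.000721) and edgeR without TMM factors (0.000444) or scaled on pan-epithelial genes (3.74e-05) called it lower, and leaving out Winnie-Prolapse replicate 3 did so too (0.000448). Against C57BL/6, Winnie mice differed by -0.31 ± 0.19 (adjusted p = 0.243). Muc3a, the paralog, had 485 CPM in C57BL/6 replicate 7 against 39.9 to 195 CPM elsewhere.

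Muc13 was the 1 member past an adjusted p of 0.05 in Winnie mice relative to controls. It measured 2202, 2468 and 3438 CPM in C57BL/6 mice, 2312, 3963 and 4791 CPM in Winnie mice and 2396, 2745 and 4655 CPM in Winnie-Prolapse mice. The groups overlapped, with 5 of 7 Winnie libraries above every control and 1 Winnie library, replicate 5, among the lowest of all. The fitted difference in Winnie against C57BL/6 was 0.59 ± 0.16 on the log2 scale, or 1.51-fold (edgeR adjusted p = 0.0145), and that of Winnie-Prolapse mice relative to the same controls was 0.47 ± 0.20 (adjusted p = 0.0559). Leaving out C57BL/6 replicate 7 changed the Winnie value little, to 0.59 ± 0.16 (adjusted p = 0.0180). Between the Winnie groups Muc13 differed by -0.12 ± 0.23 (adjusted p = 0.772).

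Muc4, a long membrane mucin that binds ErbB2, was low in the controls with 1 exception. It measured 42.5 to 70.6 CPM in 7 C57BL/6 libraries and 290 CPM in C57BL/6 replicate 7. Winnie mice had 78.4, 146 and 261 CPM, and Winnie-Prolapse mice 81.6, 184 and 341 CPM, at the lowest, median and highest. With all libraries the groups overlapped, and the log2 fold changes against C57BL/6 were 0.75 ± 0.39 in Winnie (edgeR adjusted p = 0.160) and 1.29 ± 0.43 in Winnie-Prolapse (adjusted p = 0.0189). Without C57BL/6 replicate 7, every Winnie and every Winnie-Prolapse library lay above every control, as did 0.873% and 7.87% of all genes tested. The log2 fold changes were then 1.31 ± 0.23 in Winnie (adjusted p = 0.00224) and 1.87 ± 0.28 in Winnie-Prolapse (adjusted p = 7.72e-05, 3.66-fold), and the second was called. It remained called at 1.68 ± 0.28 (adjusted p = 0.000331) when Winnie-Prolapse replicates 6 and 7 were left out as well. Between Winnie-Prolapse and Winnie mice Muc4 differed by 0.55 ± 0.34 (adjusted p = 0.306).

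Muc1, a cytoplasmic-tail signalling mucin found on many glandular epithelia, had its highest median in the Winnie-Prolapse group. It measured 6.59, 27.3 and 47.5 CPM in C57BL/6 mice, 6.82, 9.98 and 66.5 CPM in Winnie mice and 32.9, 61.6 and 152 CPM in Winnie-Prolapse mice. The Winnie-Prolapse libraries overlapped both other groups, with 4 of 7 above every control, and the highest was the library with milk transcripts. The difference of Winnie-Prolapse against C57BL/6 was 1.495 ± 0.39 on the log2 scale, or 2.82-fold (edgeR adjusted p = 0.00501), and against Winnie 1.80 ± 0.54 (adjusted p = 0.0521). Without Winnie-Prolapse replicates 6 and 7 these were 0.94 ± 0.33 (adjusted p = 0.0317) and 1.22 ± 0.51 (adjusted p = 0.186). In Winnie against C57BL/6, Muc1 differed by -0.29 ± 0.47 (adjusted p = 0.668), and the high Winnie library was replicate 2, without which the difference was -0.93 and was not called.

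Muc20, a membrane mucin that associates with the Met receptor, was nearly silent in controls and was the 1 member called with all libraries. It did not pass the count filter in Winnie against C57BL/6 and passed it elsewhere mainly through the Winnie-Prolapse libraries. Its call is thus that of a member admitted by the group where it was high. C57BL/6 libraries had 2 to 11 counts each, or 0.0684, 0.167 and 0.398 CPM at the lowest, median and highest. Winnie mice had 0.0771, 0.201 and 1.19 CPM and Winnie-Prolapse mice 0.182, 1.94 and 13.0 CPM, and 6 of 7 Winnie-Prolapse libraries lay above every control. In Winnie-Prolapse against C57BL/6 Muc20 rose by 4.36 ± 0.78 on the log2 scale (edgeR adjusted p = 0.000273). The controls held 40 counts in total, so the fold depends on few reads. Without Winnie-Prolapse replicate 6, which had 322 of the 621 Winnie-Prolapse counts, it was still called at 3.23 ± 0.53 (adjusted p = 0.000196), and without replicates 6 and 7 at 2.90 ± 0.51 (adjusted p = 0.000527). Without the 5 libraries high in squamous markers it was 1.34 ± 0.59 (adjusted p = 0.127) and was not called. limma-voom did not call it (adjusted p = 0.00362), and without C57BL/6 replicate 7 Muc20 no longer passed the count filter. Against Winnie mice the Winnie-Prolapse difference was 3.19 ± 0.85 (adjusted p = 0.0338), and 1.70 ± 0.64 (adjusted p = 0.147) without replicates 6 and 7. The part of reads from the overlapping Muc4 in the Muc20 counts was not tested.

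With all libraries, 0 members tested had groups that did not overlap in any comparison, beside 0.463% of genes higher and 1.17% lower for Winnie relative to C57BL/6, 6.5% and 9.45% for Winnie-Prolapse relative to C57BL/6, and 0.411% and 0.552% between the Winnie groups. In Winnie against C57BL/6, 0 of the 5 members tested were called, where 0.0925% of all genes tested were called. At an unadjusted p under 0.05, 2 of the 5 passed, near the 39.9% of all genes, and DESeq2 and limma-voom each called 0 members, beside 4.3% and 0% of all genes. In Winnie-Prolapse against C57BL/6, 1 of 6 members tested was called, Muc20, higher, beside 18.3% of all genes in either direction, 9.84% higher and 8.47% lower. DESeq2 called 4 there, Muc1, Muc5b and Muc20 higher and Muc3 lower, beside 16.9% of all genes, and limma-voom called 1, Muc3, beside 17.6%. At an unadjusted p under 0.05, 6 of 6 members passed in edgeR, beside 58.5% of all genes. Muc20 is among these 6, and it passed the count filter mainly through the Winnie-Prolapse libraries, here and in the comparison with Winnie mice. In Winnie-Prolapse against Winnie, 0 of 6 were called, as were 0% of all genes. At an unadjusted p under 0.05, 2 of the 6 passed, near the 27.8% of all genes, while DESeq2 called 2 (Muc5b and Muc20) beside 2.3% of all genes, and limma-voom 0 beside 0%. At an adjusted p under 0.05 with the same fold limit, edgeR gave 1 member in Winnie (Muc13), 5 in Winnie-Prolapse against C57BL/6 and 1 between the Winnie groups (Muc20), beside 15.9%, 34.4% and 6.99% of all genes. The members that passed the filter are not the whole family. The comparisons share their control or Winnie libraries and are not independent.

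**Figure D2:**
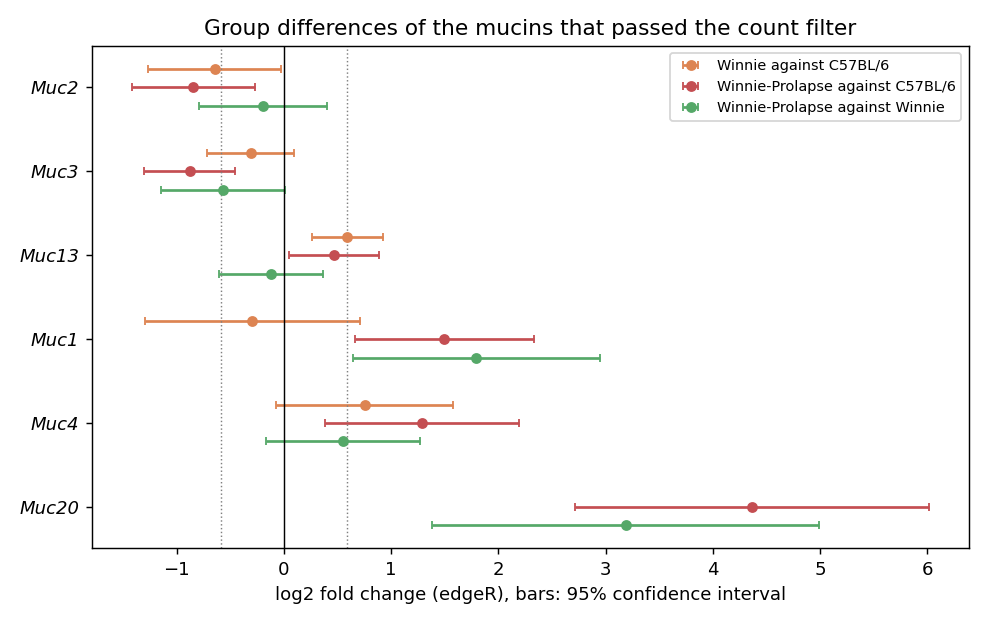
Fitted log2 fold change of the 6 mucins that passed the count filter, with 95% confidence intervals as bars, dotted lines at the 1.5-fold limits and colours for the 3 comparisons. Muc2 and Muc3 lie below 0, Muc4 and Muc20 above, and Muc1 is below 0 in Winnie (-0.29) and above in Winnie-Prolapse against C57BL/6 (1.495).

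Within the Winnie-Prolapse group, replicates 1 and 3, low in squamous markers, were set beside the other five, a split chosen after the data were seen. Their CPM did not overlap those of the other five for 4 of the 6 members tested (Muc1 and Muc20 lower, Muc2 and Muc3 higher), beside 13.1% of all genes tested. Because of how the split was chosen, this count is a description and no excess over all genes is read from it. Muc20, 1 of the 4, passed the count filter mainly through the Winnie-Prolapse libraries. Replicates 1 and 3 were both from males, and the 3 females of the group were among the other 5. The 12 markers summed to 107 and 115 CPM in Winnie-Prolapse replicates 1 and 3 and to 365 CPM or more in replicates 2, 4, 5, 6 and 7. Sprr1a made 102 and 113 CPM of the sums in replicates 1 and 3, and the other 11 markers 5.24 and 2.48 CPM. Krt5, a basal keratin of stratified epithelium, had 2 counts in each of replicates 1 and 3 and 1307 to 17593 counts in the other five. Muc20 measured 0.651 and 0.182 CPM in replicates 1 and 3 and 1.67 to 13.0 CPM in the other five. Muc1 measured 32.9 and 33.0 CPM in replicates 1 and 3 and 44.4 to 152 CPM in the others. In both genes the lowest Winnie-Prolapse libraries were those low in squamous markers. Among the other 5 the order differed, since replicate 6, with 365 CPM of these markers, had the most Muc1 and Muc20. Replicate 7, with 3637 CPM, had 65.6 CPM of Muc1 and 3.20 CPM of Muc20. Replicate 2, with 2348 CPM, had the least Muc1 of the 5. C57BL/6 replicate 5 had 47.5 CPM of Muc1 at a sum of 6.94 CPM, above Winnie-Prolapse replicates 1, 2 and 3. Muc2 measured 3079 and 2047 CPM in replicates 1 and 3 and 1292 to 1884 CPM in the other five. Muc3 measured 3355 and 3722 CPM in replicates 1 and 3 and 1555 to 2975 CPM in the other five. For Muc2 and Muc3 the libraries low in squamous markers were thus the highest of the group. The same 2 libraries had the highest sums of the 10 goblet cell markers, 10730 and 8650 CPM against 2602 to 5014 CPM, and of the 9 absorptive colonocyte markers, 4245 and 6775 CPM against 1470 to 2956 CPM. Muc4 and Muc13 did not follow this split, with 184 and 81.6 CPM of Muc4 in replicates 1 and 3 and 108 to 341 CPM in the others, and 4473 and 4254 CPM of Muc13 against 2396 to 4655 CPM. With the 5 libraries high in squamous markers left out, the log2 fold change of Muc1 in Winnie-Prolapse against C57BL/6 was 0.52 ± 0.46 (edgeR adjusted p = 0.443) and that of Muc13 was 0.90 ± 0.19 (adjusted p = 0.00694), on 2 Winnie-Prolapse libraries. In that fit Muc2 was -0.33 ± 0.40 (adjusted p = 0.579), Muc3 was -0.35 ± 0.19 (adjusted p = 0.212) and Muc4 was 0.71 ± 0.61 (adjusted p = 0.427). Among Winnie mice, replicate 2 had the highest squamous sum (120 CPM) and also the highest Muc1, Muc4 and Muc20. The part of squamous tissue, or of goblet cells and colonocytes, in these values was not tested.

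**Figure D3:**
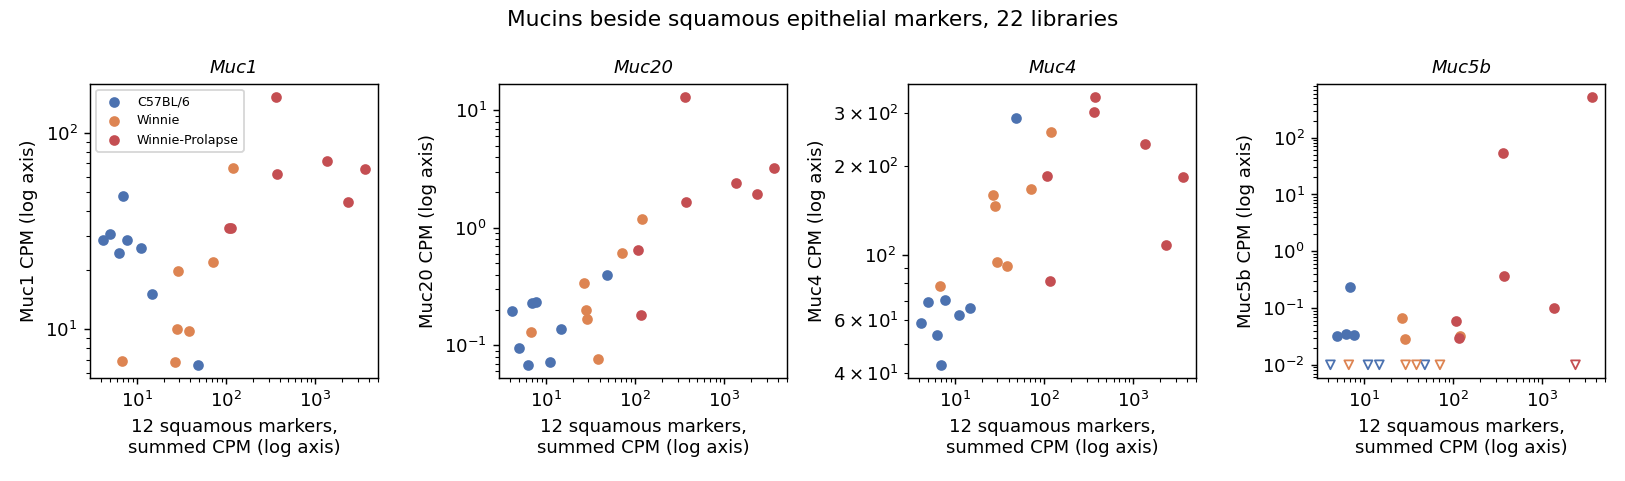
Level of 4 mucins against the summed level of 12 squamous markers in each of the 22 libraries, both in CPM on log axes, with colours for the groups and open triangles at 0.01 for libraries at 0. Muc20 ranges from 0.0684 CPM to 13.0 CPM and is above 1 CPM in 5 Winnie-Prolapse libraries and 1 Winnie library.

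Per length, Muc3 had the highest level of the family and Muc20 the lowest of those that passed the filter. In C57BL/6 mice the mean was 2619 ± 334 CPM per kb of merged exon (SD, n = 8) for Muc3, 865 ± 145 for Muc13, 504 ± 251 for Muc2, 11.1 ± 5.07 for Muc1, 7.59 ± 6.95 for Muc4 and 0.0444 ± 0.0276 for Muc20. With all libraries Muc13 and Muc2 lay within both SDs together, as did Muc1 and Muc4. Without C57BL/6 replicate 7, Muc13 was at 869 ± 157, Muc2 at 418 ± 64.1, Muc1 at 12.2 ± 4.13 and Muc4 at 5.15 ± 0.846 CPM per kb (SD, n = 7). Muc13 then lay above Muc2, and Muc1 above Muc4, by more than both SDs together. In Winnie-Prolapse mice the means were 1335.5 ± 416 CPM per kb for Muc3, 1119 ± 331 for Muc13, 265 ± 82.6 for Muc2, 28.1 ± 17.6 for Muc1, 17.5 ± 8.14 for Muc4 and 0.817 ± 1.09 for Muc20 (SD, n = 7). The order was that of the controls. Muc3 and Muc13 lay within both SDs together there, as did Muc1 and Muc4. In Winnie mice Muc3 was at 1973 ± 595 CPM per kb, Muc13 at 1230 ± 250, Muc2 at 300 ± 114, Muc4 at 12.1 ± 5.36, Muc1 at 8.62 ± 9.06 and Muc20 at 0.0960 ± 0.0979 (SD, n = 7). Muc4 stood above Muc1 there, within both SDs together, as were Muc3 and Muc13, and Muc1 and Muc20. Gene models of mucins often lack part of the repeats, and the Muc3 model here has 1943 bp of exon, so its level per kb may be too high.

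As a share of the counts of all 9 members, the median of Muc3 was lower and that of Muc13 higher in both Winnie groups. Muc3 had 25.4, 48.4 and 51.4% (lowest, median and highest) in C57BL/6, 25.9, 36.3 and 54.1% in Winnie and 25.9, 30.2 and 36.7% in Winnie-Prolapse mice. Muc13 had 17.7, 23.1 and 27.9% in C57BL/6, 27.2, 40.9 and 51.1% in Winnie and 36.6, 41.4 and 45.6% in Winnie-Prolapse mice. For the share of Muc13 every Winnie-Prolapse library was above every control, while its CPM overlapped that of the controls. Muc2 had median shares of 27.6, 23.2 and 22.5%, and its highest share was 54.8% in C57BL/6 replicate 7. The lowest Muc3 share and the lowest Muc13 share of the controls were those of that library as well. The 9 members together took a median of 1.09% of all counts in the controls, 0.970% in Winnie mice and 0.744% in those with prolapse, with ranges of 0.981 to 1.44%, 0.793 to 1.22% and 0.599 to 1.11%. These shares are descriptions without a test. A rise of 1 member lowers the shares of the others, and a fall, as in the medians of Muc3 and Muc2, raises them.

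**Figure D4:**
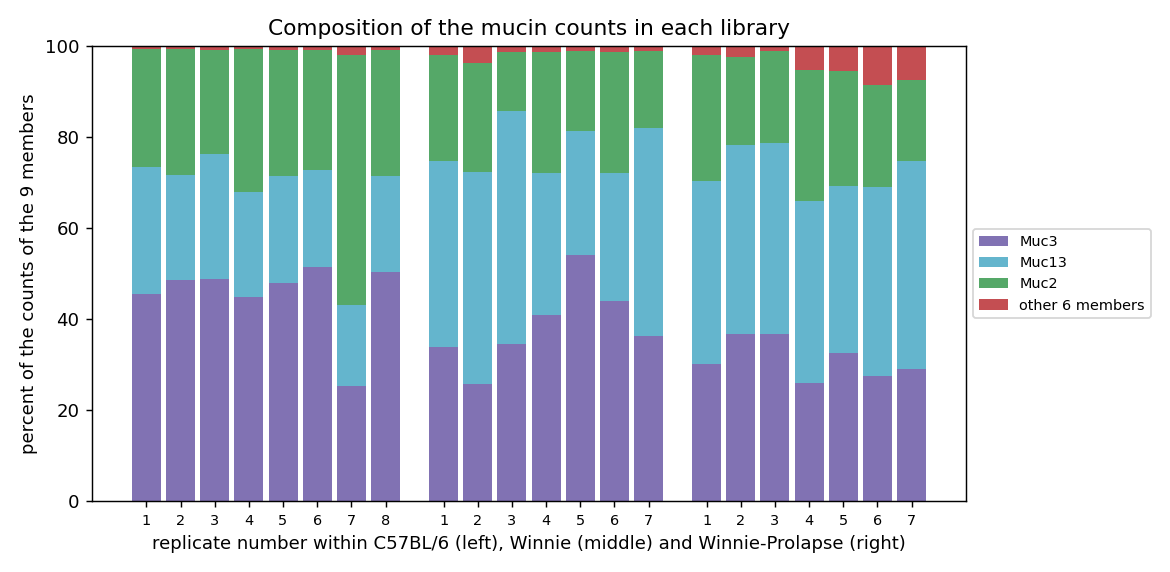
Stacked bars give the percent of the 9 members' counts that came from Muc3, Muc13, Muc2 and the other 6 members in each library, grouped by C57BL/6, Winnie and Winnie-Prolapse. C57BL/6 replicate 7 stands out with 54.8% Muc2, and the Muc13 share is 36.6% or more in every Winnie-Prolapse library.

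Between mice of 1 group, some members varied together. Correlations were taken over log2 CPM centred on the group means in 22 libraries, for 15 pairs of the 6 members that passed the filter, with p from 100000 permutations within groups. Muc4 and Muc20 correlated at Pearson's r = 0.65 (adjusted permutation p = 0.011) and Spearman's rho = 0.64 (adjusted permutation p = 0.0544), and r was 0.59 without the 2 libraries farthest from the median of Muc4. Within C57BL/6, Winnie and Winnie-Prolapse mice taken alone r was 0.60, 0.92 and 0.67. Muc1 and Muc20 gave r = 0.54 (adjusted permutation p = 0.0377) and rho = 0.51 (adjusted permutation p = 0.0727), with r = 0.67 without the 2 farthest libraries. Within the 3 groups it was -0.42, 0.77 and 0.93. The negative value in the controls was not tested and rests on 2 to 11 counts of Muc20 per library, so no direction is read from it. Muc3 and Muc20 went in opposite directions, with r = -0.64 (adjusted permutation p = 0.0377), rho = -0.60 (adjusted permutation p = 0.0727) and r = -0.60 without the 2 farthest libraries, and within the 3 groups r was -0.70, -0.45 and -0.77. These 3 pairs passed an adjusted p of 0.05 by Pearson's r and none did by Spearman's rho. All 3 hold Muc20, which passed the count filter mainly through the Winnie-Prolapse libraries. It had 2 to 11 counts in each control, so its r values within C57BL/6 mice rest on few reads. On TMM-scaled values Muc4 and Muc20 still passed, while Muc1 and Muc20 (r = 0.55, adjusted permutation p = 0.0589) and Muc3 and Muc20 (r = -0.51, adjusted permutation p = 0.187) did not. Muc2 and Muc4 gave r = 0.56 (adjusted permutation p = 0.0600), and without C57BL/6 replicate 7 it was 0.28. Muc1 and Muc4 gave r = 0.06 with all libraries and 0.55 without C57BL/6 replicate 7, and Muc1 and Muc3 gave -0.50 and -0.74. Libraries share their depth and their tissue makeup across genes, and Muc4 and Muc20 share sequence.

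Genes whose group-centred levels were most like each member were read from 13592 genes over 22 libraries, as descriptions. For Muc2 they were Cgref1 (r = 0.87), Tspan13 (0.87) and Slc35g2 (0.87). For Muc3 they were Map2k1 (r = 0.94), Slc25a3 (0.94) and Cox7a1 (0.92), and for Muc13 Baiap2l1 (0.79), Gm14446 (0.77) and Cldn8 (0.77). For Muc4 they were Aldh1l2 (r = 0.88), Edem3 (0.88) and Cdc42ep2 (0.88), for Muc1 Lrg1 (0.85), Tmem173 (0.84) and Sema6b (0.83), and for Muc20 Slc7a5 (0.83), Itpripl1 (0.77) and Wfdc18 (0.76). Without C57BL/6 replicate 7 the first of these genes changed for Muc2 (Tspan13 at r = 0.88, Cgref1 at 0.80) and Muc13 (Cldn8 at 0.85, Baiap2l1 at 0.81). It also changed for Muc4 (Edem3 at 0.84, Aldh1l2 at 0.83). For Muc1 (Lrg1, then at 0.92), Muc3 and Muc20 it stayed the same.

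Sex did not mark any member past the threshold. Over all libraries with group as covariate, 0 members differed between males and females at an adjusted p under 0.05, beside 0.0768% of all genes tested, and 0 passed an unadjusted p under 0.05 in edgeR, beside 4.49%. DESeq2 called 0 members as well, beside 0.0792% of all genes, with 1 member at an unadjusted p under 0.05, beside 3.74%. This was Muc5b, lower in males by -4.25 ± 1.28 on the log2 scale (DESeq2 adjusted p = 0.372). It did not pass the filter of the edgeR test of males against females. Both libraries with abundant Muc5b, Winnie-Prolapse replicates 6 and 7, were from females. For the sex by group interaction, 0 members were called in Winnie and 0 in Winnie-Prolapse, beside 0% of all genes in both by edgeR. DESeq2 called 0 members there, beside 0.54% and 0.0132% of all genes, with 4 and 2 members at an unadjusted p under 0.05, beside 9.44% and 3.83%. These were Muc1, Muc3, Muc6 and Muc20 in Winnie, and Muc5b (DESeq2 adjusted p = 0.234) and Muc6 in Winnie-Prolapse. In Winnie mice 2 members had an unadjusted p under 0.05 in edgeR, beside 13.1% of all genes, Muc3 with a log2 interaction of -1.03 ± 0.39 (edgeR adjusted p = 0.299) and Muc20 with 2.93 ± 1.23 (adjusted p = 0.334). In Winnie-Prolapse mice 0 members had such a p in edgeR, beside 5% of all genes.

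Of 10 other mucin-named genes, 4 were tested and 0 were called by edgeR in Winnie-Prolapse against C57BL/6, with 3 at an unadjusted p under 0.05, a threshold that 58.5% of all genes passed. Cd164, a sialomucin of many cell types, had the smallest adjusted p of those named (0.000215) but a log2 fold change of 0.49 ± 0.09, under the fold limit, and Podxl, of podocytes and vessels, differed by 0.58 ± 0.20 (adjusted p = 0.0210). Muc15, a membrane mucin, and Muc19, a salivary gel-forming mucin, were not tested. Both were highest in the library with milk transcripts, Winnie-Prolapse replicate 6, at 209 and 3.87 CPM, and the highest control values were 0.0786 and 0.0684 CPM. Muc15 was not limited to that library, since its median over the Winnie-Prolapse libraries was 2.45 CPM, beside a median of 0 in C57BL/6 mice and 0 counts in Winnie mice.

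Genes that build, sugar-coat and secrete mucins were compared beside the family. In the list of 19 GalNAc transferases, which attach the first sugar, 17 were tested in Winnie-Prolapse against C57BL/6, 2 rose and 2 fell, beside 18.3% of all genes called (9.84% higher and 8.47% lower). Galnt3 rose from a median of 41.8 to 154 CPM (log2 fold change 1.78 ± 0.16, edgeR adjusted p = 5.32e-07) and Galnt1 from 62.6 to 129 CPM (1.04 ± 0.11, adjusted p = 4.12e-06). Galnt6 fell from 140 to 77.9 CPM (-0.77 ± 0.10, adjusted p = 1.66e-05) and Galnt17, a transferase known from brain, from 10.8 to 0.589 CPM (-3.09 ± 0.49, adjusted p = 0.000101). Galnt4 and Galnt7, the most abundant of the list with Galnt6, differed by 0.14 ± 0.09 (adjusted p = 0.195) and -0.11 ± 0.13 (adjusted p = 0.484). The list's median log2 fold change was -0.16 beside -0.01 over all genes.

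Of 11 genes for sugar cores and their extension, all 11 were tested, 3 rose and 0 fell, beside 9.84% and 8.47% of all genes. C1galt1, the core 1 synthase, rose from 47.7 to 117 CPM (1.18 ± 0.17, edgeR adjusted p = 4.34e-05), B3gnt3, which extends core 1, from 281 to 417 CPM (0.79 ± 0.10, adjusted p = 1.06e-05) and Gcnt4, a core 2 branching enzyme, from 2.09 to 24.1 CPM (3.48 ± 0.34, adjusted p = 1.38e-06). B3gnt7, the most abundant of the list, differed by -0.16 ± 0.40 (adjusted p = 0.750), B3galt5 by 0.34 ± 0.20 (adjusted p = 0.169) and B4galt1 by 0.15 ± 0.19 (adjusted p = 0.541). The list's median was 0.15.

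Among 18 genes that cap the sugars with sialic acid, fucose or sulfate, 15 were tested, 1 rose and 1 fell, beside the same 9.84% and 8.47% of all genes. Slc26a2, the sulfate transporter that supplies sulfation, fell from 2208 to 263 CPM (-2.42 ± 0.41, edgeR adjusted p = 0.000172). Fut1, a fucosyltransferase, rose from 0.386 to 1.52 CPM (1.69 ± 0.28, adjusted p = 0.000152). St6galnac6 and St3gal4, sialyltransferases, differed by 0.17 ± 0.13 (adjusted p = 0.264) and -0.55 ± 0.33 (adjusted p = 0.169). The list's median was 0.02.

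In the list of 16 genes for mucin folding, secretion and gel partners, 15 were tested, 1 rose and 2 fell, beside 9.84% and 8.47% of all genes, and its median was -0.74. Agr2, a disulfide isomerase that folds Muc2, rose from 483 to 1187 CPM (1.49 ± 0.16, edgeR adjusted p = 4.56e-06). Clca1, a goblet cell protease that processes Muc2, fell from 2738 to 98.9 CPM (-3.00 ± 0.61, adjusted p = 0.000806), and Mep1a, a meprin protease subunit, from 411 to 45.2 CPM (-3.02 ± 0.47, adjusted p = 9.52e-05). Fcgbp, which is bound in the mucus gel, differed by -0.95 ± 0.39 (adjusted p = 0.0506) and Zg16, a lectin that binds bacteria, by -0.88 ± 0.64 (adjusted p = 0.256). In C57BL/6 replicate 7, Fcgbp and Clca1 measured 1082 and 1130 CPM, although its Muc2 was the highest of all libraries.

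Calls in these lists depended on the libraries. Without C57BL/6 replicate 7 the GalNAc transferase and core lists kept the same called genes, the capping list had 3 higher and 1 lower and the folding and secretion list 2 higher and 3 lower, beside 20.1% of all genes called. Without Winnie-Prolapse replicates 6 and 7, Slc26a2 and Clca1 were no longer called, while St6galnac2 and Itln1 were called lower, beside 12.4% of all genes. Without the 5 libraries high in squamous markers, Galnt3, Gcnt4 and Agr2 were the genes of the 4 lists still called, beside 2.55% of all genes.

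None of the 11 genes of the goblet cell transcription factor list passed the limits in edgeR, and 7 had an unadjusted p under 0.05, near the 58.5% of all genes (median log2 fold change -0.58). Of these, 1 was called lower without C57BL/6 replicate 7, Foxa2, beside 20.1% of all genes. Hnf4a differed by -0.58 ± 0.15 (edgeR adjusted p = 0.00400), Klf4 by -0.49 ± 0.26 (adjusted p = 0.119) and Elf3 by 0.07 ± 0.10 (adjusted p = 0.570). In Winnie against C57BL/6, Agr2 alone among the genes of these lists was called, rising from 483 to 1312 CPM (1.55 ± 0.19, edgeR adjusted p = 0.000776). With each of 15 libraries left out in turn it was called 4 times and missed the limit on p 11 times (adjusted p from 4.66e-05 to 0.00292), and limma-voom did not call it (1.49 ± 0.18, adjusted p = 0.00105). Between the Winnie groups 0 genes of these lists were called in edgeR, as were 0 of all genes, while 3 of 15 GalNAc transferases, 5 of 11 core genes, 5 of 15 capping genes, 8 of 15 folding and secretion genes and 6 of 11 transcription factors had an unadjusted p under 0.05, beside 27.8% of all genes.

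**Figure D5:**
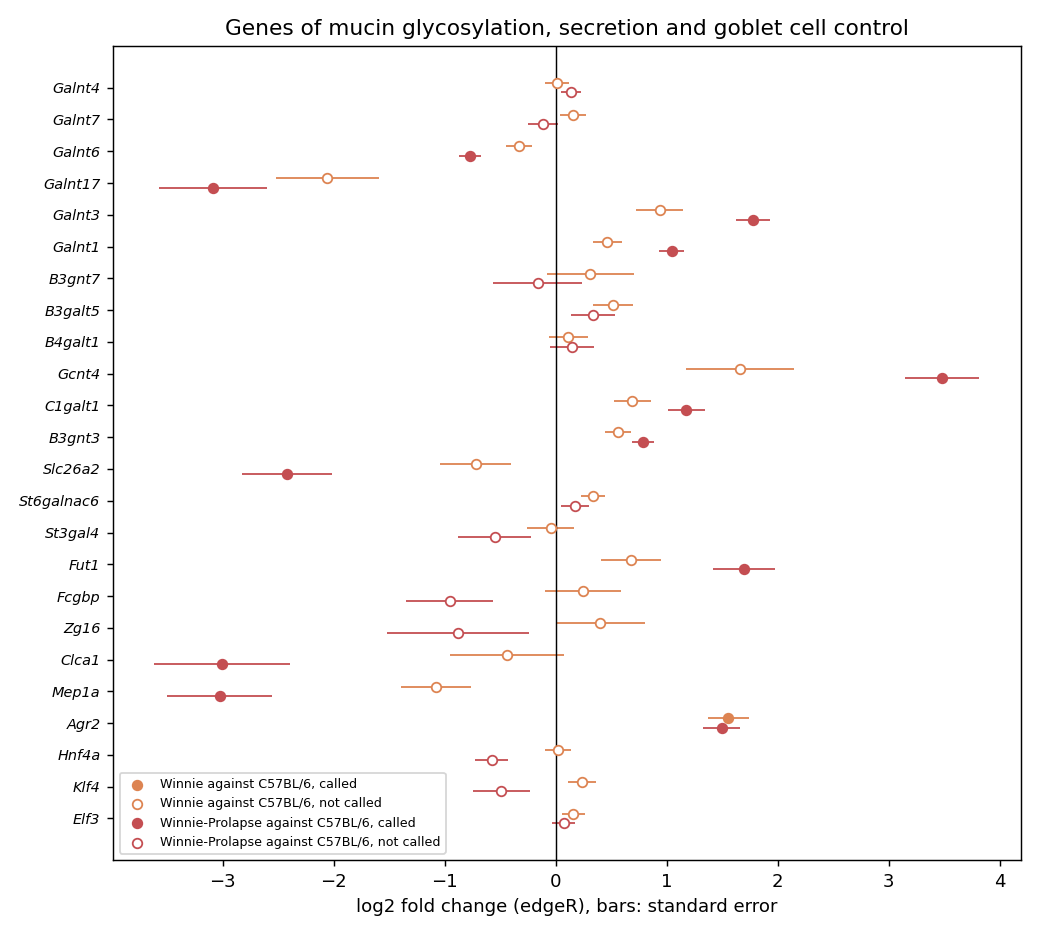
Log2 fold change with standard error for the named genes of mucin glycosylation, secretion and goblet cell control, in Winnie and in Winnie-Prolapse against C57BL/6, with filled points for called genes. Galnt3, Galnt1, Gcnt4, C1galt1, B3gnt3, Fut1 and Agr2 were called higher and Galnt6, Galnt17, Slc26a2, Clca1 and Mep1a lower in Winnie-Prolapse, and Agr2 alone was called in Winnie.

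With all libraries, markers of squamous epithelium, smooth muscle, leukocytes and absorptive colonocytes had calls in 1 direction in Winnie-Prolapse mice relative to controls. Those of goblet cells had calls in both directions and those of all epithelium none, where 18.3% of all genes were called (9.84% higher and 8.47% lower). The 8 pan-epithelial markers summed to 9634 to 11326 CPM in C57BL/6, 10122 to 13825 CPM in Winnie and 7965 to 13851 CPM in Winnie-Prolapse mice, and 0 of 8 were called in any comparison in edgeR, while 5 of 8 had an unadjusted p under 0.05 in Winnie mice relative to controls, 3 in Winnie-Prolapse mice relative to controls and 1 between both Winnie groups, beside 39.9%, 58.5% and 27.8% of all genes. The 10 goblet cell markers summed to 4571 to 12647 CPM, 5244 to 20932 CPM and 2602 to 10730 CPM, and in Winnie-Prolapse against C57BL/6 2 rose (Agr2 and Spink4) and 1 fell (Clca1). The 9 absorptive colonocyte markers summed to 7151 to 11993 CPM, 2939 to 10796 CPM and 1470 to 6775 CPM, with 2 lower (Car1 and Slc26a3). All 6 smooth muscle markers fell, from sums of 6686 to 12048 CPM in C57BL/6 to 1309 to 3178 CPM in Winnie-Prolapse mice, and 4 of 7 leukocyte markers rose, from sums of 53.9 to 249 CPM to 222 to 1282 CPM. Of the 12 squamous markers 6 were tested and all 6 rose. Markers other than Sprr1a summed to 2.29 to 3.93 CPM in the controls and to as much as 3361 CPM in Winnie-Prolapse mice. Those markers could pass the count filter largely through the libraries where they were high, so their shared direction adds no support. Without the 5 libraries high in these same markers 1 of the 6 (Krt6b) was called, beside 2.55% of all genes. The absorptive colonocyte calls went both ways without C57BL/6 replicate 7 (Krt20 higher, and Car1, Slc26a3 and Slc37a2 lower). Without Winnie-Prolapse replicates 6 and 7 the goblet cell calls were higher alone (Agr2 and Spink4), and Clca1, Slc26a3 and Cd3e were no longer called. Without the 5 libraries high in squamous markers, 0 of the 6 smooth muscle, 0 of the 9 absorptive colonocyte and 3 of the 7 leukocyte markers were called in edgeR, with 2 of the 10 goblet cell markers (Agr2 and Spink4), beside 2.55% of all genes. At an unadjusted p under 0.05 they numbered 6, 3, 5 and 3, beside 35.1% of all genes. The part of these cell types in the mucin values was not tested.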

How the data were processed

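RNA of 22 samples labelled as distal colon was measured, as 1 library per mouse; C57BL/6 replicate 7 went against that label by its Hox genes and was kept. The authors made strand-specific libraries from poly(A) RNA and ran the RNAsik pipeline on GRCm38. The deposited table gives the authors' raw read counts per gene from featureCounts, whole numbers with no normalization. The submitters' processing notes also name STAR and limma. The annotation release, strand setting and handling of shared reads were not given in the sources used here.

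Groups and sexes came from the labels. All 7 libraries labelled Winnie were used. The paper's methods give fewer Winnie mice, and which library is the additional one was not given in the sources used here. CPM was computed here as counts over the library total in M (mega) counts. The quasi-likelihood F test of edgeR 4.0.16 (R 4.3.3) was applied to the counts with TMM factors, filterByExpr and Benjamini-Hochberg adjustment over all genes, on the libraries of the 2 groups compared. A gene was called at an adjusted p under 0.001 and at least 1.5-fold. Standard errors of edgeR fold changes were derived as the absolute log2 fold change over the square root of F. Their confidence intervals were built from these derived errors. Of 200 simulated 4-fold changes, the step recovered 180 in Winnie against C57BL/6 (17168 genes), 174 in Winnie-Prolapse against C57BL/6 (17267 genes) and 167 in Winnie-Prolapse against Winnie (16926 genes), with 0 false calls. The changed genes were drawn from those above a minimum mean CPM, and no library was made to stand apart. Recovery of smaller differences, or of members near the limit of counting such as Muc20 in controls, was not simulated. Correlations used log2 CPM with a prior count of 2.

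From each list the 3 most abundant genes and up to 4 called genes with the largest change were named, and 3 most-like genes with a mean log2 CPM of at least 1 for each member. Members and lists were chosen with earlier results of these data known. The Hox genes and Muc3a were chosen after their values were seen. Alternatives were DESeq2, limma-voom (3.58.1), another quasi-likelihood fit, other scalings, filters, samples and thresholds. Limits set by 3 counts cover counting error only, while intervals of fold changes come from the fitted spread between libraries. Each library is a mouse of its own by its label, and p-values measure the spread between these samples.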

Additional observations from a re-analysis of the deposited data

Results flagged for a closer look

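In 12 of 23 groups of libraries tested, the library at one end of a group stood apart from the others by Dixon's test at the 95% level. Chance would give this in about 1 in 20 groups if values were independent and normally distributed. The test used CPM without logs, some groups held few counts, and the same libraries recur across members. The 12 of 23 is therefore a description and not a measured excess over chance. C57BL/6 replicate 7, the library almost without Hoxd13, was apart for 4 members, with 7901 CPM of Muc2 (next 3893), 290 CPM of Muc4 (next 70.6), 1.27 CPM of Muc6 (next 0.0361) and 3665 CPM of Muc3, the lowest value (next 4714). Winnie-Prolapse replicate 6, the library with milk transcripts, was highest for Muc1 at 152 CPM (next 72.1), Muc20 at 13.0 CPM (next 3.20) and Muc5ac at 0.242 CPM (next 0.0736), the last resting on 6 counts. Winnie-Prolapse replicate 7 was apart for Muc5b at 520 CPM (next 54.8). Winnie replicate 2 was apart for Muc1 at 66.5 CPM (next 21.96), and Winnie-Prolapse replicate 1 for Muc2 at 3079 CPM (next 2047). Low counts lie behind the values of Muc5b in C57BL/6 replicate 5 (0.231 CPM, 6 counts) and of Muc6 in Winnie-Prolapse replicate 4 (0.231 CPM, 7 counts). Groups with at most 3 counts in every library, 4 in number, were not tested.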

How the results depend on the processing

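No paired analysis was possible because the labels share no replicate numbers between groups. For Winnie against C57BL/6, 16 genes were called, and 8 without TMM factors, 1258 with DESeq2, 0 with limma-voom, 30 with another quasi-likelihood fit, 68 without a low-count filter, 0 with at least 10 counts in every library, 26 with sex as covariate, 199 with the 3 groups in one fit, 130 in males, 0 in females and 2757 at an adjusted p under 0.05. Leaving out 1 library gave 0 to 677 genes, the most without Winnie replicate 5. Members called were 0, and 1 at an adjusted p under 0.05. For Winnie-Prolapse against C57BL/6, 3186 genes became 5043 with DESeq2, 307 in males, 255 in females, 5981 at an adjusted p under 0.05, 468 without the 5 libraries high in squamous markers and 2517 to 3657 with 1 library left out. The 1 member called became 2 without TMM factors or with epithelial scaling, 4 with DESeq2, 0 with at least 10 counts in every library, in males, in females or without the squamous-high libraries, 5 at an adjusted p under 0.05, and 1 to 2 with 1 library left out, the most without Winnie-Prolapse replicate 3. Muc20 was not tested with at least 10 counts in every library, in males or without C57BL/6 replicate 7. In the last of these settings the 1 member called was Muc4. For Winnie-Prolapse against Winnie, 0 genes became 678 with DESeq2, 42 with the 3 groups in one fit, 54 in females, 1191 at an adjusted p under 0.05 and 0 to 1 with 1 library left out. Members called were 0, and 2 with DESeq2 and 1 at an adjusted p under 0.05.

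The log2 fold change changed sign in Winnie against C57BL/6 for Muc1 in males (0.47) and Muc3 in females (0.076), and in Winnie-Prolapse against Winnie for Muc2 in males (0.22) and without the squamous-high libraries (0.28), Muc3 in males (0.050), Muc4 in males (-0.19) and without the squamous-high libraries (-0.067), and Muc13 with epithelial scaling (0.00079) and without the squamous-high libraries (0.28). None of these values was called, and the cause was not tested. Epithelial scaling moved the median log2 fold change of all genes to -0.28 in Winnie and -0.13 in Winnie-Prolapse against C57BL/6. With TMM-scaled values 1 pair of members, Muc4 and Muc20, passed an adjusted p of 0.05 for the correlation. With counts per kb the median shares of Muc2 were 10.5, 9.46 and 9.72% and those of Muc3 67.3, 51.5 and 47.2% in C57BL/6, Winnie and Winnie-Prolapse mice. Per kb of coding length the C57BL/6 levels were 4488 CPM for Muc3, 1529 for Muc13 and 0.0840 for Muc20. Depth limits Muc5ac, Muc6 and Muc20 in controls. Settings without the libraries that stood apart or were high in squamous markers were chosen after seeing the data.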
